A study of Danio rerio with 4 samples.

Results

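Solute carriers are a large class of membrane transport proteins. They were followed here on arrays of embryonic brain RNA from foggy mutant zebrafish and from wild-type zebrafish. The members were all probe sets with a single gene symbol beginning with slc and a number, apart from slc4a1a, slc6a3, slc18a3a and slc32a1. This gave 133 of the 8793 genes that the array reads with a single-symbol probe set. They fall in 37 numbered families and are read by 154 of the 15617 probe sets of the array. A pair of the symbols match the rule without naming a carrier, since slc4a1ap stands for an adaptor protein and slc7a6os for a gene on the opposite strand of a carrier gene.

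The samples were 3 arrays of RNA from foggy brains and 1 array of RNA from wild-type brain, taken at 36 h (the mutant labels give this number with no unit). The foggy gene encodes the transcription elongation factor Spt5, which binds RNA polymerase II, so every group difference here is set in a mutant of general transcription. The labels give neither the allele nor whether the mutant samples came from separate clutches or extractions. Each p-value therefore rests on the spread among the 3 foggy arrays, which the fit combines with that of other probe sets of like signal. That spread may be technical. The supt5h probe set, for the mutated gene, read 258, 245 and 254 in the foggy arrays and 209.8 in the wild-type array (0.25, SE 0.0872, adjusted p = 0.137). The labels do not say whether the mutation alters the amount of this transcript, so the value checks no label.

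Many carriers use the gradients that pumps build, or exchange one solute for another, and each family number stands for a set of related proteins. Some feed a cell, such as the sugar carriers of slc2 and the amino acid carriers of slc7, slc38 and slc43. Others work inside it, such as the slc25 carriers of the inner mitochondrial membrane, and in the nervous system members of slc1 and slc6 clear transmitters from the synapse.

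The value of a probe set is its signal in intensity units, which the authors had already scaled between arrays. A signal depends on the probes as well as on the transcript, so signals are compared between arrays and not between genes. A difference is given as foggy minus wild type on the log2 scale after a pseudocount of 16.3 units, which understates the change of weak signals. Probe sets in the lowest 30% of mean log2 signal were called dim and not tested. Of the members 106 probe sets (93 genes) were tested and 48 were dim, a tested share of 68.8% against 70.0% of all probe sets apart from controls. The weakest tested member had a mean signal of 27.8 over the 4 arrays. The tests were limma's, adjusted over all 10851 tested probe sets with 0.05 as the threshold.

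As a class the solute carriers had a similar summed signal in foggy and wild-type arrays. Over all 154 probe sets, 48 of them dim, the median signal was lower in foggy. Over the tested members it was not lower in every foggy array. The summed signal of the 154 probe sets was 16853, 17226 and 16901 in the foggy arrays and 17157 in the wild-type array. Their median signal was 48.98, 52.56 and 50.97 in the foggy arrays and 59.73 in the wild-type array. For all probe sets the median was 65.25, 65.44 and 66.03 against 65.36. For the tested members alone it was 82.06, 88.06 and 90.83 against 90.79. The gap in median signal was not tested. Taken probe set by probe set, the median difference of the tested members was -0.031, -0.0039 and -0.018 in foggy arrays 1, 2 and 3. For all tested probe sets it was 0.022, 0.024 and 0.026. The median difference of the 106 tested members was -0.03, and that of all tested probe sets was 0.02. The 10th and 90th percentiles were -0.33 and 0.24 for the members and -0.27 and 0.28 for all tested probe sets. Below 0 were 61 of the 106 members, or 57.5%, against 45.4% of all tested probe sets. All 3 foggy arrays lay below the wild-type array at 35 members (background 28.4%) and above it at 27 (25.5%, background 36.2%), so the groups did not overlap at 58.5% of members against 64.6% of all.

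Of the 106 tested members 9 passed, which is 8.49% against a background of 5.5% of all tested probe sets. Lower in foggy were 4 probe sets of 3 genes (3.77%, background 3.14%), and higher were 5 probe sets of 5 genes (4.72%, background 2.36%). At an unadjusted p under 0.05 there were 12 lower (background 8.89%) and 9 higher (background 11.7%), 19.8% of members against 20.6% of all tested probe sets. After the pseudocount, none of the 106 differed by 2-fold in all 3 foggy arrays (background 0.571% lower and 0.0184% higher). In signal without the pseudocount, slc25a4 was more than 2-fold lower in each foggy array (40.4, 41.5 and 45.9 against 93.1 in the wild-type array). By 1.5-fold after the pseudocount, 4 were lower and 1 was higher (background 1.5% and 0.276%). These counts rest on 1 wild-type array, which the fit assumes to vary like the foggy arrays. With its SD taken as 2 times that of the foggy arrays, limma called 0 members (background 0.433% of all tested probe sets). In that fit 4 members were lower and 5 higher at an unadjusted p under 0.05, for which no background was counted. Without the trend of variance on signal, 3 of the 9 calls remained (2.83% of members, background 1.51%). They were those of slc7a3a, slc25a4 and the brighter probe set of slc2a15b. Without foggy array 1, 17 members passed (background 18.8% of all), the 9 calls and 8 more, among them slc30a5, slc39a7 and slc25a3b.

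**Figure D1:**
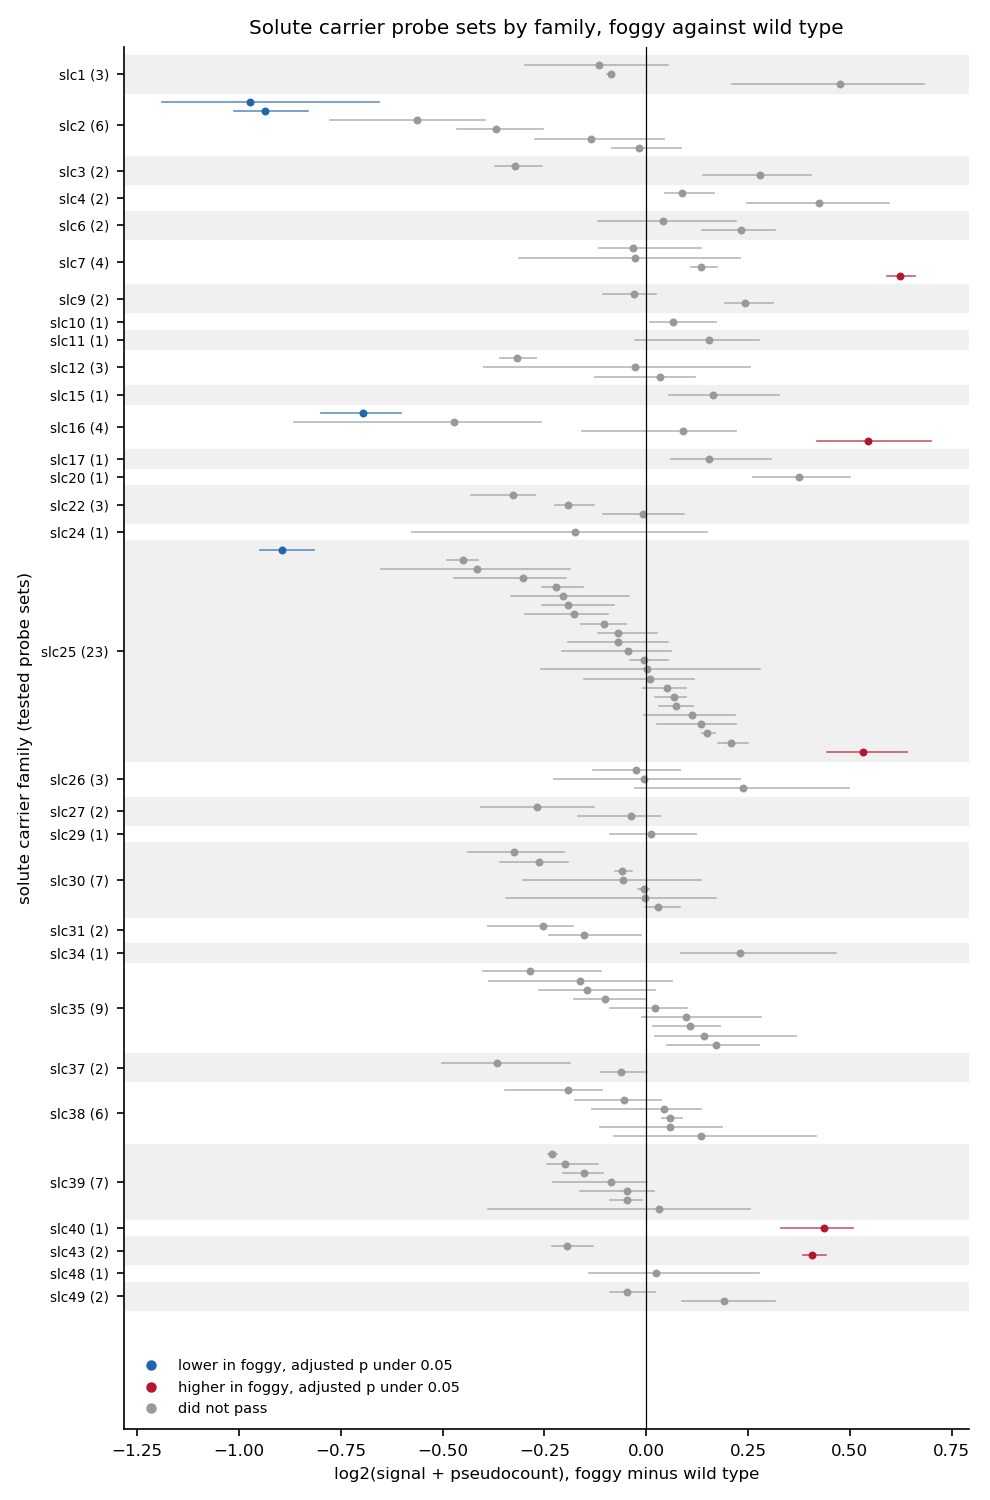
Difference of each tested solute carrier probe set (foggy minus wild type, log2 of signal plus pseudocount) by family, with the number of tested probe sets in brackets. Points are the fitted difference over the 3 foggy arrays and lines run between the lowest and the highest single-array difference. The 4 blue and 5 red points passed limma's test, and most of the others lie close to 0.

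Sugar carriers of slc2 held the largest falls. The family counts 9 probe sets of 8 genes, of which 6 were tested, 2 were lower (background 3.14%) and 4 did not pass. All 6 lay below 0, with a median of -0.47. Median centring, quantile normalization and cyclic loess gave medians of -0.466, -0.472 and -0.485. Scalings that move values so little could hardly turn a sign, so the signs kept there are no support. The 6 stand for 5 genes, with slc2a15b counted 2 times, and 45.4% of all tested probe sets lay below 0. The smallest differences were those of slc2a8 (-0.02) and slc2a3a (-0.14), whose foggy arrays lay on both sides of the wild type. Both called probe sets belong to slc2a15b, a gene of the glucose carrier family that in medaka is needed for the colour of pigment cells. Its brighter probe set read 81.2, 84.3 and 94.3 in the foggy arrays and 180.3 in the wild-type array. The other read 34.7, 51.6 and 30.7 in the foggy arrays and 90.7 in the wild-type array. In both, every foggy array lay below the wild-type array, and the 2 probe sets differed by similar amounts. The differences were -0.94 (SE 0.129, adjusted p = 0.00240) and -0.97 (SE 0.210, adjusted p = 0.0257). The second was lost where dim probe sets were tested too (adjusted p = 0.0747) and without the variance trend (0.113).

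A related gene fell just short. The slc2a11b gene, also needed for pigment cell colour in medaka, read 78.5, 107 and 97.2 in the foggy arrays and 146 in the wild-type array. Its difference of -0.56 (SE 0.156, adjusted p = 0.0689) did not pass, although all 3 foggy arrays were lower. It passed in each fit that left out 1 foggy array (adjusted p between 0.00717 and 0.0286). In those fits between 5.13% and 18.8% of all tested probe sets passed. They rest on fewer arrays, and without foggy array 3 the SE was larger than as reported (0.169). Passing there therefore adds no support to a fall. The slc2a10 gene, whose loss in humans leads to tortuous arteries, read 53.2, 49.6 and 60.0 in the foggy arrays and 74.6 in the wild-type array (-0.37, adjusted p = 0.211). For slc2a3a, counterpart of the glucose carrier of mammalian neurons, the foggy arrays (142, 169 and 132) lay on both sides of the wild-type array (163). The intracellular glucose carrier gene slc2a8 read 32.4, 27.98 and 27.04 in the foggy arrays and 29.6 in the wild-type array. The liver-type carrier gene slc2a2, slc2a9l1 and slc2a11l were dim.

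Most of the pigment cell markers tested were also lower. Of 7 pigment cell genes on the array, 6 were tested and 4 of them (gch2, dct, impdh1b and pmelb) were lower in foggy, with a median of -0.67 over the 6. The other 2 did not pass, csf1ra at -0.03 and mitfa, which lay above 0, at 0.19. The largest difference was that of gch2, a gene of pteridine synthesis (-1.23, adjusted p = 5.21e-06). The summed signal of the 7 genes was between 1224 and 1309 in the foggy arrays and 2402 in the wild-type array, and none of them was at 0. In such bulk RNA fewer pigment cells and less RNA per pigment cell cannot be told apart, and the part of pigment cells in the slc2a15b result was not tested. Of 13 carriers listed for pigment cells, 6 genes were members, and of their 5 tested probe sets 2 were lower, both slc2a15b. The other 3 were slc2a11b, slc24a4a (a potassium-dependent sodium-calcium exchanger, -0.18) and slc22a7b.1 (-0.33), which did not pass.

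No sugar carrier outside slc2 passed. The endoplasmic reticulum glucose-6-phosphate carrier slc37a4b read 34.2, 46.4 and 37.3 in the foggy arrays and 55.1 in the wild-type array (-0.37, adjusted p = 0.276). The slc37a2 probe set read 125, 129 and 137 in the foggy arrays and 137 in the wild-type array. The slc5 family was listed here by its number alone, which does not show that its members carry sugar. Its 3 sodium-coupled members, slc5a6b, slc5a8l and slc5a12, were dim at 23.1 or below in every array.

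Amino acid carriers held 2 of the 5 rises and none of the falls. Of 14 tested probe sets in slc3, slc7, slc38 and slc43, 2 were higher (background 2.36%) and 12 did not pass. Their median was 0.05, with slc7a6os, which names no carrier, counted among the 14. The slc7a3a gene encodes a carrier of arginine and lysine. It read 423, 435 and 414 in the foggy arrays and 269 in the wild-type array, and no foggy array came near the wild type. The difference of 0.62 (SE 0.0758, adjusted p = 0.00106), 1.54-fold, had the smallest p of all members. The slc43a2a gene encodes a facilitative carrier of large neutral amino acids. It read 235, 226 and 228 in the foggy arrays and 169 in the wild-type array, 1.33-fold higher (0.41, SE 0.0903, adjusted p = 0.0287). That call was lost with no filter (adjusted p = 0.0522) and without the variance trend (0.125).

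Their relatives went both ways. The slc43a1a gene, for another neutral amino acid carrier, read 166, 179.5 and 168 in the foggy arrays and 198 in the wild-type array (-0.19, adjusted p = 0.309). The paired genes slc3a2a and slc3a2b encode the heavy chain that brings slc7 light chains to the cell surface. The slc3a2a probe set read 127, 116 and 119 in the foggy arrays and 155 in the wild-type array (-0.32, adjusted p = 0.139). That of slc3a2b read 799, 962 and 891 in the foggy arrays and 724 in the wild-type array (0.28, adjusted p = 0.119). In each, the 3 foggy arrays lay on one side of the wild type, below it for slc3a2a and above it for slc3a2b. Neither passed unless foggy array 1 was left out (adjusted p = 0.0253 and 9.75e-06). In that fit 18.8% of all tested probe sets passed, against 5.5% in the fit as reported.

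The light chain gene slc7a8a and the slc38 genes did not pass. Both probe sets of slc7a8a differed by -0.03. The 6 tested slc38 probe sets lay between -0.19 (slc38a4) and 0.14. Among them slc38a2, for a sodium-coupled carrier that cells raise when amino acids are scarce, read 121, 107 and 127 in the foggy arrays and 123 in the wild-type array. The brightest, slc38a5b, read 433, 421 and 418 in the foggy arrays and 406 in the wild-type array (0.06). The bystander slc7a6os read between 651 and 681 in the foggy arrays and 602 in the wild-type array (0.13, adjusted p = 0.298).

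Carriers that clear glutamate and other transmitters did not pass. The slc1a2b gene encodes a glutamate carrier of astroglia. It read 831, 824 and 835 in the foggy arrays and 883 in the wild-type array, a small and even difference of -0.09 (SE 0.0623, adjusted p = 0.476). For slc1a3a, the other glial glutamate carrier, the foggy arrays (103, 117 and 88.1) overlapped the wild type (112). The slc1a4 gene, for a carrier of serine, alanine and cysteine, was higher in every foggy array. It read 166, 237 and 211 there and 141 in the wild-type array, a wide spread behind a difference of 0.48 (SE 0.156, adjusted p = 0.116). The slc1a4 probe set passed without foggy array 1 (adjusted p = 2.26e-05), a fit in which 18.8% of all tested probe sets passed.

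Only 4 slc6 probe sets were members, and 2 were tested. The slc6a11a gene, for a GABA carrier, read 44.7, 52.7 and 49.4 in the foggy arrays and 39.2 in the wild-type array (0.23, adjusted p = 0.455). The slc6a17 gene, for an amino acid carrier of synaptic vesicles in mammals, read 79.7, 59.6 and 67.4 in the foggy arrays, around the wild type at 66.1. The slc6a19a.1 and slc6a19b genes, of the type that absorbs neutral amino acids in gut and kidney of mammals, were dim. None of 19 transporters listed for neurons and none of 11 listed for retina was a member. Of 11 listed for glia 3 were, slc1a2b, slc1a3a and slc6a11a. Of 15 genes of neurons and glia on the array, 3 of 13 tested were lower and 1 was higher, with a median of 0.00 and summed signals between 12097 and 12508 in the foggy arrays and 13399 in the wild-type array.

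The monocarboxylate family slc16 was split. Of its 4 tested probe sets 1 was lower (background 3.14%), 1 was higher (background 2.36%) and 2 did not pass. The slc16a12b gene, whose human counterpart carries creatine, read 58.4, 62.8 and 52.8 in the foggy arrays and 103.8 in the wild-type array. All foggy arrays lay well below the wild type, and the difference was -0.70 (SE 0.148, adjusted p = 0.0243), 1.62-fold. The slc16a9b gene, of a type that carries carnitine and creatine in humans, read 245, 301 and 263 in the foggy arrays and 179 in the wild-type array. All foggy arrays lay above the wild type, by 0.54 (SE 0.112, adjusted p = 0.0221), 1.46-fold. Both calls were lost with no filter (adjusted p = 0.0601 and 0.0554) and without the variance trend (0.0573 and 0.139).

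The carriers of lactate and pyruvate did not pass. The slc16a1b probe set read 26.5, 48.95 and 47.3 in the foggy arrays and 61.7 in the wild-type array (-0.47, SE 0.235, adjusted p = 0.293). Its foggy arrays all lay below the wild type, with array 1 well under the others. For slc16a3b the foggy arrays (64.95, 88.6 and 89.4) lay on both sides of the wild type (74.4). The slc16a9a gene was dim.

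**Figure D2:**
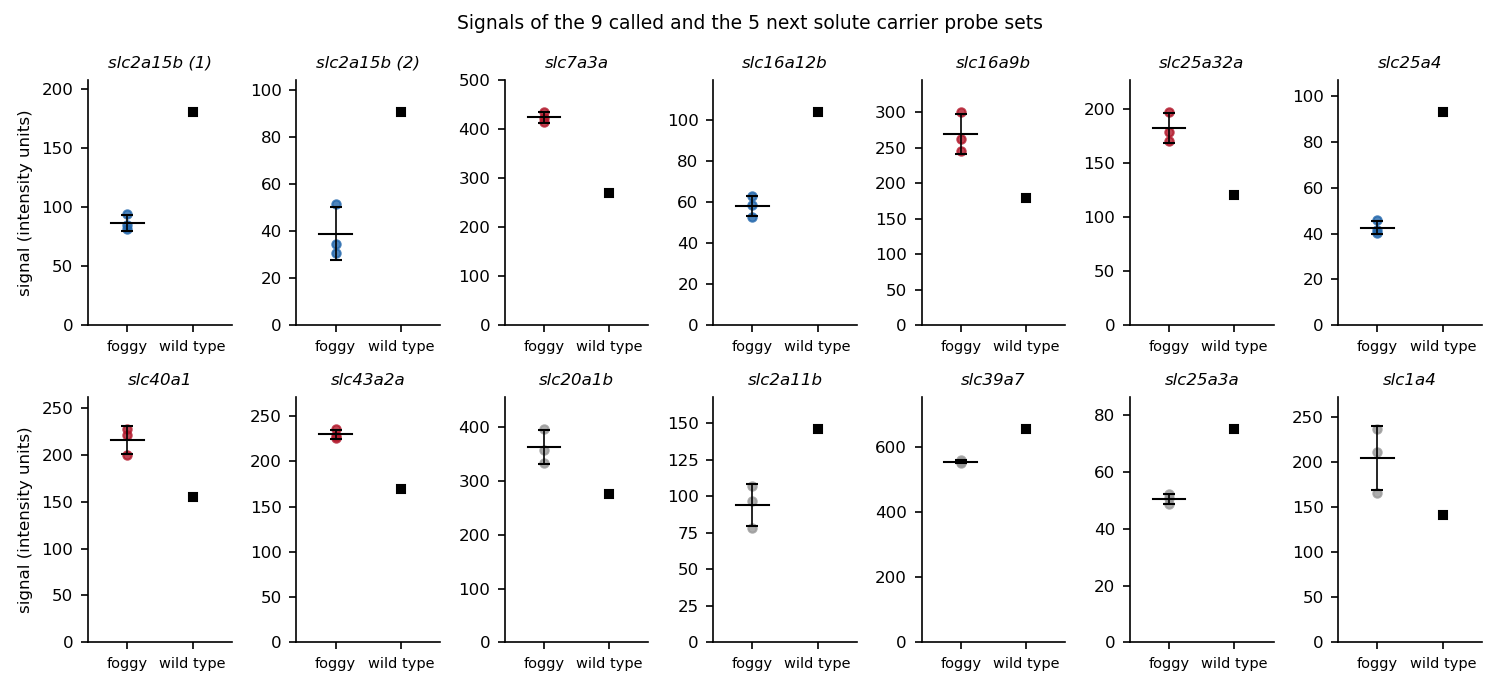
Signal (intensity units, linear axes from 0) of the 9 called solute carrier probe sets and of the 5 with the next smallest adjusted p. Circles are the 3 foggy arrays with their mean and SD, blue where lower, red where higher and grey where the test was not passed, and the square is the single wild-type array. In all 14 panels the 3 foggy arrays lie on one side of the wild type, as at 64.6% of all tested probe sets. The 14 were chosen by adjusted p in this same comparison, which favours such probe sets.

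The mitochondrial carriers of slc25 were the biggest family, with 29 probe sets of 25 genes. Of the 23 tested, 1 was lower (background 3.14%), 1 was higher (background 2.36%) and 21 did not pass. Below 0 were 13 of the 23 (background 45.4%), with a median of -0.05. The fall was that of slc25a4, for the carrier that exchanges ADP and ATP across the inner membrane and that in mammals is strongest in heart and skeletal muscle. It read 40.4, 41.5 and 45.9 in the foggy arrays and 93.1 in the wild-type array. The foggy arrays were close together and well below the wild type, and the difference was -0.90 (SE 0.153, adjusted p = 0.00879).

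Most muscle markers fell in the same samples. Of 14 skeletal muscle genes on the array, all tested, 13 were lower in foggy and 1 did not pass, with a median of -1.22. The parvalbumin gene pvalb1 differed by -2.11 (adjusted p = 8.32e-07). Their summed signal was between 2761 and 2958 in the foggy arrays and 7611 in the wild-type array, and none was at 0. Their part in the slc25a4 result was not tested. Of 7 members listed for muscle and energy metabolism, 6 were tested and slc25a4 alone passed.

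The rise was that of slc25a32a, for a carrier of folate and flavin nucleotide into mitochondria. It read 171, 198 and 179 in the foggy arrays and 121 in the wild-type array, with all foggy arrays above, a difference of 0.53 (SE 0.111, adjusted p = 0.0229) or 1.45-fold. It was lost without the variance trend (adjusted p = 0.110).

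The mitochondrial phosphate carrier is encoded by 2 genes on the array. The slc25a3b gene gave the highest signal of any member, 1438, 1297 and 1299.5 in the foggy arrays and 1410.0 in the wild-type array (-0.07, SE 0.0732, adjusted p = 0.653, and 0.0438 without foggy array 1). Without that array 18.8% of all tested probe sets passed. The slc25a3a gene read 50.7, 52.4 and 48.8 in the foggy arrays and 75.1 in the wild-type array. Its foggy arrays all lay below the wild type and hardly differed among themselves, but its difference of -0.45 (SE 0.147) did not pass (adjusted p = 0.114). Whether slc25a3a and slc25a3b differ from each other was not tested.

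The 21 slc25 probe sets that did not pass lay between -0.45 and 0.21, with 12 below 0. The citrate carrier slc25a1a read 447, 430 and 412 in the foggy arrays and 463 in the wild-type array (-0.10). The aspartate-glutamate carrier slc25a12 read 159, 186 and 179 in the foggy arrays and 199.6 in the wild-type array (-0.18). The acylcarnitine carrier slc25a20 read 137, 171 and 146 in the foggy arrays and 176 in the wild-type array (-0.21). All 3 of these were lower in each foggy array, and none passed. The bright slc25a55a probe set read 696, 743 and 703 in the foggy arrays, around the wild type at 716 (-0.00). Both probe sets of the oxoglutarate-malate carrier slc25a11 lay slightly above 0 (0.15 and 0.11). The pyrimidine nucleotide carrier slc25a33 read 205, 205 and 221 in the foggy arrays and 248 in the wild-type array (-0.22, adjusted p = 0.210). For slc25a16, linked to coenzyme A in mitochondria, the foggy arrays (38.8 to 59.7) were all below the wild type (70.2) but far apart, at -0.41 (adjusted p = 0.255).

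Mitochondrial carriers of blood formation did not pass either. The slc25a37 gene, for the iron importer mutated in the zebrafish line frascati, was dim at 14.7 or below in every array. The slc25a38b gene, of a type that brings glycine in for heme synthesis, read 123, 116 and 118 in the foggy arrays and 101 in the wild-type array (0.21, adjusted p = 0.351). Both probe sets of slc25a39, a glutathione carrier, differed by 0.07. Most of the red cell markers tested were lower in these samples. Of 10 such genes on the array, 5 of 6 tested were lower and 1 did not pass, with a median of -1.66, and summed signals between 1659 and 1801 in the foggy arrays and 6660 in the wild-type array. None of the 10 was at 0.

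Metal carriers included the rise of slc40a1. This gene encodes ferroportin, which exports iron from cells and is mutated in the zebrafish line weissherbst. It read 221, 199 and 227 in the foggy arrays and 155 in the wild-type array, all foggy arrays above, by 0.44 (SE 0.103, adjusted p = 0.0382), 1.35-fold. It was the least stable of the calls, lost in 6 of 12 alternatives, among them leaving out foggy array 3 (adjusted p = 0.0689), quantile normalization (0.0509) and cyclic loess (0.0578). The iron importer slc11a2 read 74.9, 91.5 and 96.3 in the foggy arrays and 76.7 in the wild-type array (0.15). The heme carrier slc48a1b differed by 0.02 in the fit reported here and by -0.01 under cyclic loess. Of 10 carriers listed for red cells and iron, 7 genes were members, and of their 6 tested probe sets slc40a1 alone passed.

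No zinc or copper carrier passed. The slc30 proteins move zinc out of the cytosol and the slc39 proteins move it in. Of their 14 tested probe sets, which stand for 10 genes, limma called 0 (background 5.5%). At limma's unadjusted p under 0.05, 2 were lower (background 8.89%). Below 0 were 12 of the 14, with slc30a9 counted 3 times and slc39a7 and slc39a9 2 times each, where 45.4% of all tested probe sets lay below 0. The median of the 14 was -0.06. The 2 that were lower at an unadjusted p under 0.05 were slc39a7 and slc30a5. The slc39a7 gene, whose product releases zinc from the endoplasmic reticulum, read 561, 555 and 552 at its brighter probe set in the foggy arrays and 655 in the wild-type array. Those foggy values were nearly equal and all below the wild type, at -0.23 (SE 0.0668, adjusted p = 0.0799, and 0.00216 without foggy array 1). At its other probe set it read 367, 351 and 377 in the foggy arrays and 407 in the wild-type array (-0.15, adjusted p = 0.309). The slc30a5 gene, for a carrier that loads zinc into the secretory pathway, read 141, 127 and 117 in the foggy arrays and 164 in the wild-type array (-0.32, adjusted p = 0.167, and 0.0138 without foggy array 1). Without that array 18.8% of all tested probe sets passed. The 3 probe sets of slc30a9 gave -0.00, -0.06 and -0.26. Both probe sets of the copper importer slc31a1 were lower in every foggy array (-0.25 and -0.15, adjusted p = 0.212 and 0.469).

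Ion exchangers and phosphate carriers had 1 member near the threshold. The slc20a1b gene, for a sodium-coupled phosphate carrier, read 396, 358 and 333 in the foggy arrays and 275 in the wild-type array. All 3 foggy arrays lay above, by 0.38 (SE 0.0984, adjusted p = 0.0574). It too passed in each fit that left out 1 foggy array (adjusted p between 0.00235 and 0.0445), where between 5.13% and 18.8% of all tested probe sets passed. Those fits rest on fewer arrays, and without foggy array 2 the SE was larger than as reported (0.111). Passing there therefore adds no support to a rise. The anion exchanger slc4a2a read 57.5, 66.3 and 48.6 in the foggy arrays and 38.4 in the wild-type array at its tested probe set (0.43, adjusted p = 0.1999), and its other 2 probe sets were dim. The potassium-chloride cotransporter slc12a4 read 34.5, 37.7 and 35.7 in the foggy arrays and 48.8 in the wild-type array (-0.32, adjusted p = 0.3004), and slc12a7b differed by -0.03. The lysosomal sialic acid carrier slc17a5 was slightly higher in each foggy array (0.15, adjusted p = 0.636). The sulfate carrier slc26a2 read 261, 176 and 215 in the foggy arrays, with 1 of them below the wild type at 179.8 (0.24). The sodium-proton exchanger slc9a7 was higher in each foggy array (0.24, adjusted p = 0.319), and slc9a8 differed by -0.03. Of 17 carriers listed for skin ionocytes and kidney, 7 genes were members, and 3 of their 8 probe sets were tested, those of slc4a4b, slc20a1b and slc34a2b. The kidney sodium-chloride cotransporter slc12a3 was dim at both its probe sets.

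The slc35 family, mainly carriers of nucleotide sugars into the Golgi, was evenly spread. Of its 9 tested probe sets 4 lay below 0 (background 45.4%) and 5 above, all between -0.29 and 0.17. The lowest was slc35e1, at 65.5, 80.2 and 62.7 in the foggy arrays and 87.9 in the wild-type array (adjusted p = 0.340), and the brightest, one of the probe sets of slc35f6, differed by 0.02. In the families of peptide, vitamin and lipid carriers, 7 probe sets were tested and lay between -0.27 (the fatty acid carrier slc27a1a) and 0.19 (the brighter probe set of slc49a4). Their median was 0.02 here and -0.01 under cyclic loess. The 3 tested slc22 probe sets, of organic ion carriers, lay between -0.33 (slc22a7b.1) and -0.01 (slc22a2).

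Over all families, 6 held at least 1 call, 25 had tested probe sets and no call, and 6 had dim probe sets only. The 25 have no call by definition. Of their 66 tested probe sets, 4 were lower and 4 higher at limma's unadjusted p under 0.05 (background 8.89% and 11.7%). That background includes called probe sets, which these families lack by their selection, so the shares cannot be compared. The 6 dim families were slc5, slc8, slc13, slc14, slc46 and slc52, with 11 probe sets that read 31.6 or below in every array. Across the class 78 of 106 tested probe sets differed by less than 0.25, and the SE of a member ranged between 0.0623 and 0.235. For 12 genes with several tested probe sets, the probe sets of 10 shared a sign, and the widest spread within a gene was 0.26 (slc30a9). Of the exceptions, slc25a14 has probe sets that share their target sequence and differed by -0.05 and 0.01.

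**Figure D3:**
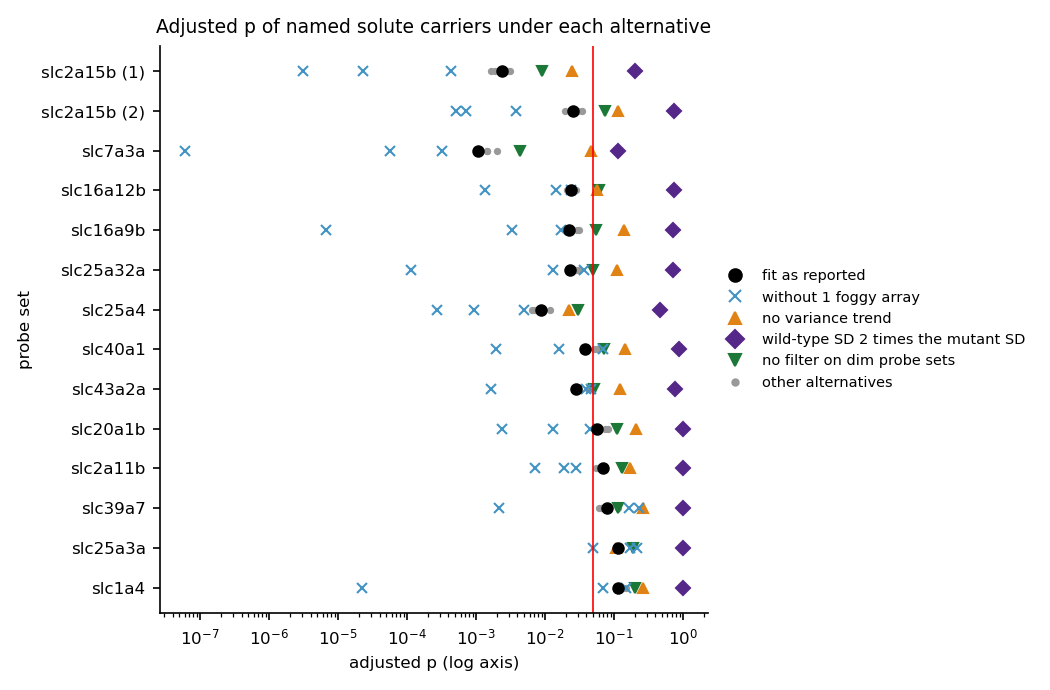
Adjusted p (log axis) of the 9 called and 5 next solute carrier probe sets in the fit as reported and under each alternative, with the 0.05 threshold in red. The 9 called probe sets all cross to the right of the line, where the other 5 already lie, when the wild-type SD is taken as 2 times the foggy SD.

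Carriers that use an ion gradient depend on the pumps that build it. The sodium pump, which builds the sodium gradient, had 12 subunit genes on the array. By the brightest probe set of each, 3 were lower (background 3.14% of all tested probe sets), 8 did not pass and 1 was dim, with a median of -0.23. Over all 17 tested probe sets of these genes the median was -0.11, with 6 above 0. The alpha subunit atp1a1b read 417, 387 and 398 in the foggy arrays and 594 in the wild-type array (-0.55, adjusted p = 0.00245). The alpha subunit atp1a1a.2 read 37.5, 24.7 and 28.3 in the foggy arrays and 78.3 in the wild-type array (-1.04, adjusted p = 0.0131), and atp1b1b differed by -0.69 (adjusted p = 0.0288). In all 3 the foggy arrays lay below the wild type. The neuronal alpha subunit atp1a3a read 347, 423 and 419 in the foggy arrays and 312 in the wild-type array (0.32, adjusted p = 0.124). The proton pump that acidifies vesicles had 15 genes, all tested. Limma called 0 of them (background 5.5%), 1 was higher at an unadjusted p under 0.05 (background 11.7%), and their median was 0.04.

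**Figure D4:**
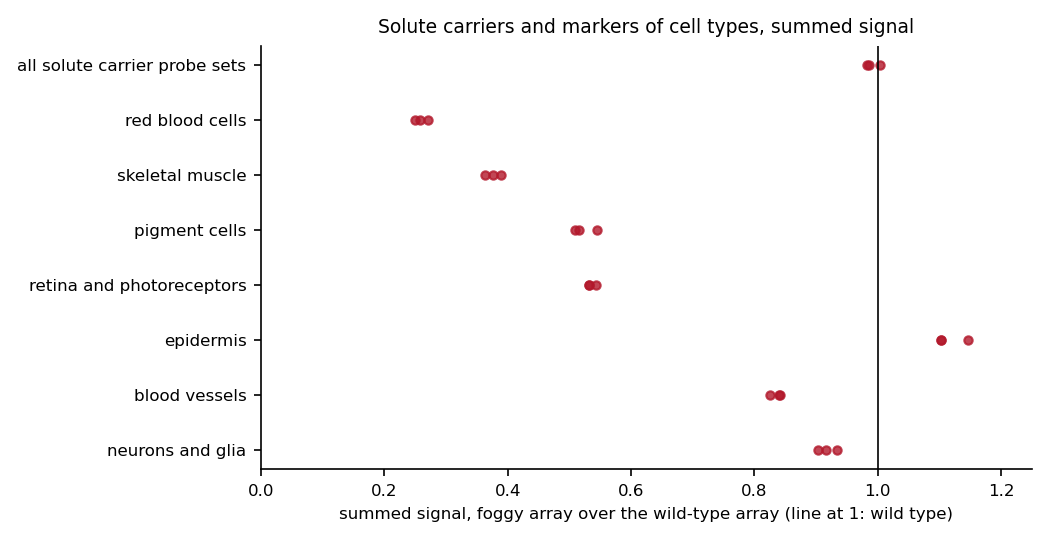
Summed signal of all solute carrier probe sets and of marker lists of cell types in each foggy array, divided by that of the wild-type array (linear axis from 0, line at 1 for the wild type). The solute carrier sum takes all 154 probe sets, 48 of them dim, while marker sums take the brightest probe set of each gene. The solute carriers lie between 0.982 and 1.00, the red cell genes between 0.249 and 0.270, and the pigment cell genes between 0.510 and 0.545.

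Markers of other tissues that brain samples can hold were read too. Of 13 retina and photoreceptor genes on the array, 8 of 10 tested were lower and 2 did not pass, with a median of -0.92. Of 15 epidermis genes, 4 were higher, 2 were lower and 9 did not pass, with summed signals between 35891 and 37332 in the foggy arrays and 32578 in the wild-type array. Of 5 blood vessel genes, 3 were tested and limma called 0 (background 5.5%), with a median of -0.19. At limma's unadjusted p under 0.05 there were 0 (background 20.6%). Of 11 carriers listed for brain vessels, 4 were members (slc3a2a, slc3a2b, slc16a1b and slc38a5b), and none passed. The part of these cell types in the solute carrier results was not tested.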

How the data were processed

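The authors deposited linear intensity values, 1 per probe set, for each of 4 arrays. Not given in the sources used here is how probes were summarised. The mean after trimming 2% at each end was 150.03 in every array, so the deposited intensities were used as scaled. A change shared by most transcripts would be lost in such scaling. The 115 control probe sets were left out. The pseudocount was the 20th percentile of all values, and 4651 of 15502 probe sets were left untested as dim, their mean log2 value over the 4 arrays lying under the 30th percentile. Of 15617 probe sets 10802 had 1 symbol, 135 several and 4680 none here. Gene numbers of all 154 members matched the RefSeq gene table of GRCz12tu, with 0 symbols changed.

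Fits used limma 3.58.1 in R 4.3.3 (lmFit, eBayes with trend), two-sided, Benjamini-Hochberg adjusted over 10851 probe sets, with 2 residual and 7.89 prior degrees of freedom. With 4 arrays, permuting labels has a smallest possible p of 0.25. The number of arrays limits the precision. No 2 arrays held identical values. On simulated data 94 of 100 probe sets changed by 0.75 (log2) and 100 of 100 changed by 1.5 were recovered among 10851, with 26 false calls. The simulation gave the wild-type array the same spread as the foggy arrays, so it cannot check that assumption. Its recovery and false calls hold only under it. Named were all members past the threshold, the 5 next by adjusted p, the 10 brightest, the brightest and the largest difference of each family with at least 3 probe sets, and listed carriers. Other lists take each gene by its brightest probe set. Members and lists were chosen with earlier results of these data known. The 12 alternatives changed the pseudocount, filter, scaling, variance trend, wild-type SD or the foggy arrays used.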

Additional observations from a re-analysis of the deposited data

How the results depend on the processing

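No paired analysis was possible because the wild type has 1 array. The 9 called and 5 next solute carrier probe sets kept their sign under each of the 12 alternatives that tested them. Only the changes of scaling could have turned a sign, and they moved these differences little beside their size. Changes of filter, variance trend or wild-type SD leave the difference as it is. In all of these probe sets every foggy array lies on one side of the wild type. Another pseudocount or fewer foggy arrays therefore cannot turn their sign. Of the 165 results of these probe sets, 134 kept their side of the threshold, 23 lost a call and 8 gained one. Counts of solute carrier calls (4 lower, 5 higher as reported) were 2 and 2 with no filter on dim probe sets. They were 2 and 5 with the stricter filter, which tests fewer members, 2 and 1 without the variance trend, and 0 and 0 with a wild-type SD of 2 times the foggy SD. Over all probe sets (341 lower, 256 higher) they were 251 and 129 with no filter, 137 and 27 without the trend, and 44 and 3 with the larger wild-type SD. Leaving out 1 foggy array gave between 5 and 9 solute carriers lower and between 5 and 8 higher. Over all probe sets it gave between 344 and 866 lower and between 213 and 1179 higher, the highest of each without array 1. Calls gained with fewer arrays add no support. The solute carrier median lay between -0.0429 and -0.0213 in these fits and was -0.00486 with the stricter filter. At 1.5-fold in place of 2-fold, after the pseudocount, 4 members were lower and 1 higher in all foggy arrays. Taking each gene by its brightest probe set gave 3 lower and 5 higher genes. Leaving out slc4a1ap and slc7a6os, an alternative chosen after seeing the data, changed no count. Cyclic loess turned the difference of slc48a1b to -0.01, against 0.02 as reported. The causes of these changes were not tested. All fits share the single wild-type array, and signals near the dim limit are understated most by the pseudocount.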

Other observations

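Other transport genes were read in the same arrays. ABC transporters, which use ATP directly, had 14 genes on the array, of which abcf2a, a family member that does not span membranes, was lower and 10 did not pass. It read 529, 525 and 483 in the foggy arrays and 716 in the wild-type array (-0.47, adjusted p = 0.00656). The other 3 were dim, as were both organic anion carriers of the slco group, slco1d1 and slco1f1.

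Another 5 probe sets carry the symbol slc3a2b together with those of several calmodulin genes and were left out of the members. At 4 of them all foggy arrays lay below the wild-type array, and 1 passed, at 502, 544 and 571 in the foggy arrays and 684 in the wild-type array (-0.34, adjusted p = 0.0419). The other differed by 0.01. The probe set named for slc3a2b alone lay above the wild type in all foggy arrays (0.28).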
